A study of Mus musculus with 6 samples.

Results

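Sterol and fatty acid synthesis was followed through 31 genes chosen by name and matched by symbol to rows of a table of 56691 mouse genes. They comprised 18 enzymes of the sterol branch in pathway order, the prenyl side branch enzyme Ggps1, the sterol carrier Stard4, 6 enzymes of the fatty acid branch and 5 factors and regulators of the SREBP system. All 31 had enough reads to be tested, among 12467 tested genes. RNA was sequenced in 6 libraries of RAW246.7 cells (the labels' spelling), a mouse line of macrophage type, of wild-type genotype and pretreated with LPS, an outer membrane component of Gram-negative bacteria that stimulates macrophages. After the pretreatment, cells of 3 libraries were kept for 24 h on MSA-ZW hydrogels and those of the other 3 on MSA-DA hydrogels. Cells without LPS or without a gel were not analysed here. The series title names fibrin networks made by macroporous hydrogels that take up protein to different extents, and setting MSA-DA beside MSA-ZW asks how macrophage expression differed between such gels. A transformed line stands in for primary macrophages here. Whether the 3 libraries of a gel are separate cultures is not stated, so each p-value reflects only their spread, which may be technical.

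Cells make cholesterol from acetyl-CoA through mevalonate, isoprenoid diphosphates, squalene and lanosterol, and they make fatty acids from the same acetyl-CoA through malonyl-CoA. Transcription of both branches is driven by the SREBP factors. SREBP precursors sit in the endoplasmic reticulum bound to the escort protein SCAP, which carries them to the Golgi for cleavage when sterols are low, while INSIG proteins hold SCAP back when sterols are plentiful. SREBP-2, encoded by Srebf2, acts mainly on sterol genes, and SREBP-1, encoded by Srebf1, mainly on fatty acid genes. In macrophages these pathways are known to supply membrane lipid and to respond to cholesterol load and inflammatory signals.

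Count totals ranged from 16347934 to 18193026 on MSA-ZW and from 14374912 to 18346615 on MSA-DA. Of 8 macrophage markers, 7 had a mean of at least 1 CPM (the count scaled to a common library size, with TMM factors) and Mertk had 1 to 3 counts in each library, whereas 0 of 21 markers of fibroblasts, lymphocytes, epithelium, adipocytes and hepatocytes reached 1 CPM. The summed level of the macrophage markers was 4468 to 4528 CPM on MSA-ZW and 3773 to 3849 CPM on MSA-DA, and its part in the results below was not tested. The markers did not move together: Lyz2 (2274 to 2323 CPM on MSA-ZW, 1747 to 1795 on MSA-DA), Csf1r, Fcgr1 and Spi1 were lower on MSA-DA without overlap. The Spi1 groups were nearly in contact (165.1 to 179.1 and 157.8 to 164.9 CPM). Cd68 (582.0 to 592.5 and 609.7 to 612.2 CPM) and Itgam (118.2 to 120.9 and 131.2 to 143.1 CPM) lay higher on MSA-DA without overlap, and Adgre1 overlapped. In bulk RNA, fewer cells of a type and less RNA per cell cannot be told apart.

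Macrophages on MSA-DA had more Insig1 transcript and less Srebf2 and Scap transcript than those on MSA-ZW. In the fatty acid branch Fasn and Acaca were lower, and in the sterol branch Mvk and Fdps were lower and Sc5d higher. The calls of Srebf2, Scap, Fasn, Mvk and Sc5d did not hold once the fit was corrected for the GC content and length of transcripts, whereas those of Insig1, Fdps and Acaca did. Each of the latter calls was in turn lost when some single library was left out, and in the limma fits given below. The other 23 members did not pass the test. All differences were small: among the 8 genes that passed, the largest was 1.22-fold. The edgeR quasi-likelihood test, fitted to all tested genes and adjusted by Benjamini-Hochberg with a threshold of 0.05, called 8 of 31 members, 2 higher and 6 lower on MSA-DA. It called 13.4% of all tested genes, 6.92% as higher and 6.5% as lower, and 15.9% of the genes whose level lay within the range of the members, 8.33% as higher and 7.61% as lower. Abundant genes were called more often, and 20 members had a mean of at least 64 CPM. Of these 20, 2 were called higher and 4 lower (30.0%), beside 26.8% of all genes at that level, 14.3% as higher and 12.4% as lower, so the share of called members was near that of other abundant genes. The 3 libraries of each gel did not overlap in 17 of 31 members, beside 28.3% of all tested genes and 31.6% of those within the members' range of levels. Non-overlap was not counted among genes of at least 64 CPM, so these shares are only loosely matched to the members' levels. The median log2 difference of the members was -0.03, beside 0.00085 over all tested genes.

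**Figure D1:**
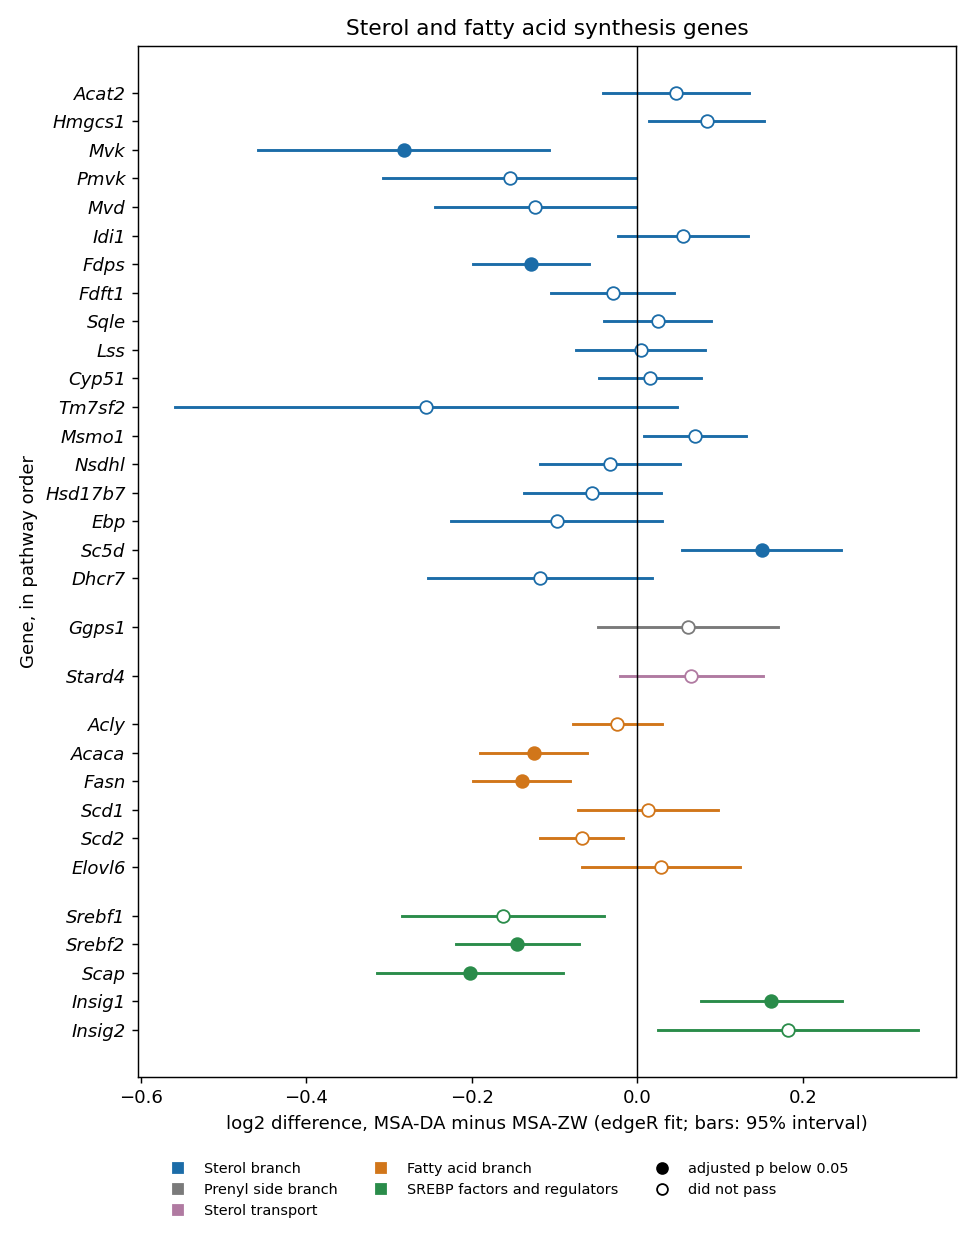
Log2 difference of each of the 31 genes (MSA-DA minus MSA-ZW, horizontal axis) with its 95% interval, in pathway order within 5 groups; filled points passed an adjusted p of 0.05. All points lie between -0.28 for Mvk and 0.18 for Insig2, with 8 filled points.

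Of the 5 SREBP factors and regulators, 1 was called higher and 2 lower, and 2 did not pass. Of all tested genes, 6.92% were called higher and 6.5% lower. The median GC content of the 5 was 57.9%. Among all tested genes of at least 55% GC, at any level, 1.64% were called higher and 12.9% lower. Insig1 encodes a protein that retains SCAP in the endoplasmic reticulum and is itself a target of SREBP (ENSMUSG00000045294, chromosome 5, 28276361 to 28283660, GRCm39). Its level was 85.3, 77.9 and 86.6 CPM in MSA-ZW libraries 1 to 3 and 92.2, 92.8 and 94.5 CPM in MSA-DA libraries 1 to 3. Every MSA-DA library lay above every MSA-ZW library, and MSA-ZW replicate 2 was the lowest of all. Insig1 was 1.12-fold higher, a log2 difference of 0.16 with a standard error of 0.04 (edgeR adjusted p = 0.00777). The edgeR call of Insig1 was lost without MSA-ZW replicate 2 (log2 difference 0.11, adjusted p = 0.101) and without MSA-DA replicate 3 (0.15, adjusted p = 0.0564), over alternatives that ranged from 0.00129 to 0.144.

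Insig2, the second retention protein, stood at 22.7, 19.3 and 20.6 CPM on MSA-ZW and at 23.4, 24.3 and 23.2 CPM on MSA-DA. The groups did not overlap, and the gene did not pass (edgeR adjusted p = 0.124), with a 95% interval of its log2 difference from 0.02 to 0.34.

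Scap, which encodes the escort protein (ENSMUSG00000032485, chromosome 9, 110162356 to 110214018, GRCm39), stood at 44.5, 43.8 and 45.2 CPM on MSA-ZW and at 37.7, 38.0 and 40.4 CPM on MSA-DA. All MSA-DA libraries were lower than all MSA-ZW libraries. Scap was 1.15-fold lower, with a log2 difference of -0.20 and a standard error of 0.06 (edgeR adjusted p = 0.0116). Srebf2, the gene of the sterol-directed factor (ENSMUSG00000022463, chromosome 15, 82031382 to 82089580, GRCm39), stood at 167.9, 149.7 and 161.7 CPM on MSA-ZW and at 142.3, 148.5 and 142.5 CPM on MSA-DA. The groups did not overlap, although MSA-ZW replicate 2 lay close to MSA-DA replicate 2. Srebf2 was 1.11-fold lower, with a log2 difference of -0.15 and a standard error of 0.04 (edgeR adjusted p = 0.00621).

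Srebf1, the gene of the factor directed at fatty acid synthesis, stood at 47.8, 43.2 and 52.1 CPM on MSA-ZW and at 41.2, 42.6 and 44.2 CPM on MSA-DA. MSA-DA replicate 3 lay above MSA-ZW replicate 2, so the groups overlapped, and Srebf1 did not pass (edgeR adjusted p = 0.0677). Without MSA-ZW replicate 2 it passed as lower (log2 difference -0.23, edgeR adjusted p = 0.0113, over alternatives from 0.0113 to 0.395). Without MSA-ZW replicate 3 its log2 difference was -0.09 (edgeR adjusted p = 0.383), and with the GC content and length correction it was -0.09 as well (0.395). The edgeR call of Scap was lost without MSA-DA replicate 2 (adjusted p = 0.0614) and that of Srebf2 without MSA-ZW replicate 1 (adjusted p = 0.0546). DESeq2 kept the calls of Insig1 and Srebf2 and not that of Scap (adjusted p = 0.0618). With the GC content and length correction Srebf2 had a log2 difference of -0.07 (edgeR adjusted p = 0.202, over alternatives from 0.000691 to 0.202) and Scap one of -0.12 (0.195, over alternatives from 0.00931 to 0.195), so that no call of a lower regulator was left, and Insig1 kept its call.

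Promoters are shown for 4 of the 8 called genes, 2 higher (Insig1, Sc5d) and 2 lower (Srebf2, Fasn) on MSA-DA, because SREBP, which Insig1 and Scap control, acts at such sequences. They are the 250 bases before the annotated start, 5′ to 3′ on the gene's strand, from RefSeq on GRCm38.p6, a build other than that of the counts. Capitals mark matches on either strand to the sterol regulatory element forms CACNCCAC and TCACNCCA, the E-box CACGTG and the CCAAT box CCAAT, bound by SREBP, by basic helix-loop-helix factors and by NF-Y. The 2 element forms overlap where a sequence holds both, and the sets were chosen with the sequences seen.
Insig1, chr5:28071162-28071411, + strand: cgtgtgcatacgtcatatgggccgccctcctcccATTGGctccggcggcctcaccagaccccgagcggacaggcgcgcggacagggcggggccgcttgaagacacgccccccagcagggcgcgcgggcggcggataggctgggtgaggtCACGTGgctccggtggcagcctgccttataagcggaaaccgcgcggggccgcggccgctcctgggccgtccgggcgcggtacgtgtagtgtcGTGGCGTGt
Sc5d, chr9:42264301-42264550, - strand: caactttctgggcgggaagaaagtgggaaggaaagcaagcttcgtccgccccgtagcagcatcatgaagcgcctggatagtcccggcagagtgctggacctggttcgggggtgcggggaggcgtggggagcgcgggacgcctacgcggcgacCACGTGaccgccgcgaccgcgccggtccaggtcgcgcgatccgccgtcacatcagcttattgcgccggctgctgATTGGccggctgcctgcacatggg
Srebf2, chr15:82147019-82147268, + strand: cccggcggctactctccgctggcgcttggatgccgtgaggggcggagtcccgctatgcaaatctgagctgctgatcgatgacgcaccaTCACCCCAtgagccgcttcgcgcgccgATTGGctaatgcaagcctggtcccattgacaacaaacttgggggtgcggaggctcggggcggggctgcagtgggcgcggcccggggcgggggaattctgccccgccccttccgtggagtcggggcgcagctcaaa
Fasn, chr11:120824548-120824797, - strand: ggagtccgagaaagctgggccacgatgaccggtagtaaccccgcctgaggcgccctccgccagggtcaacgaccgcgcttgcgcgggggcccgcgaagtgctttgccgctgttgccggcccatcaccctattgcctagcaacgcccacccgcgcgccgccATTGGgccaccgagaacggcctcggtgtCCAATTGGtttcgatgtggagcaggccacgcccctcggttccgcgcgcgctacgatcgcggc

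The Insig1 window held an element match from 9 to 2 bases before the start, an E-box and a CCAAT box, and the Srebf2 window held an element match from 162 to 155 bases before the start and a CCAAT box. That of Sc5d held an E-box and a CCAAT box, and that of Fasn held 3 CCAAT box matches. The Fasn matches at 62 to 58 and 59 to 55 bases before the start overlap, on opposite strands, and are not separate sites. Among the called genes not shown, Mvk had only a CCAAT box match, Scap only an E-box match, and Acaca had no match. The table had windows for 25 members, and not for Fdps, Fdft1, Sqle, Stard4, Scd1 and Scd2. At least 1 of the element forms was found in 5 of these 25 genes (Acat2, Hmgcs1, Msmo1, Srebf2 and Insig1), or in 15.2% of their 33 windows beside 7.77% of all 32851 windows. A CCAAT box was found in 63.6% of member windows beside 33.8% of all windows, and an E-box in 15.2% beside 6.02%. Of the genes with an element form, Insig1 was called higher, Srebf2 lower, and Acat2, Hmgcs1 and Msmo1 were not called.

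**Figure D2:**
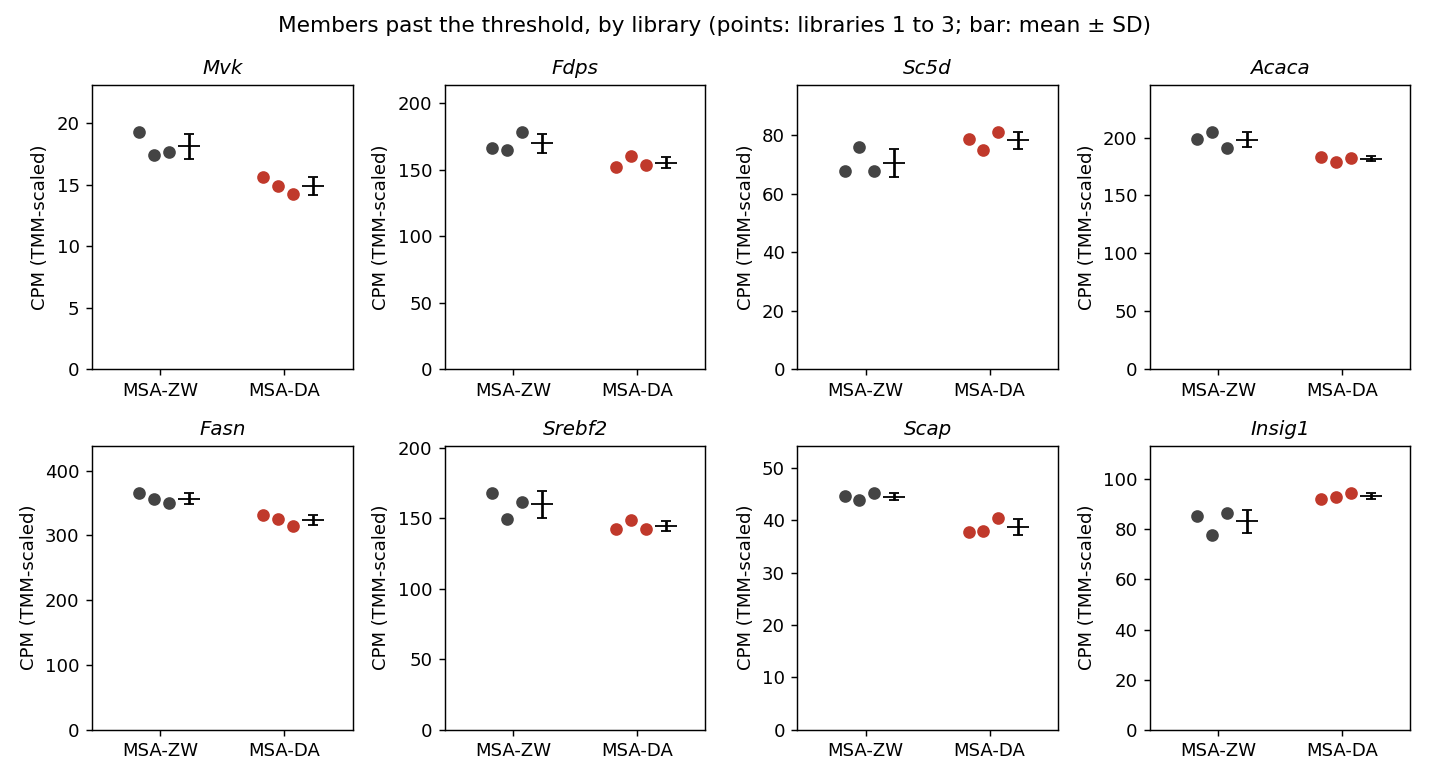
Level of the 8 called genes in each library (points, TMM-scaled CPM from 0) with the mean and SD of each gel (3 libraries each). The groups are apart in 7 panels and overlap for Sc5d, where MSA-ZW replicate 2 reached 76.0 CPM.

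The sterol branch opens with Acat2, the cytosolic thiolase that joins acetyl units, and Hmgcs1, which makes HMG-CoA, and neither passed. Hmgcs1 stood at 132.5, 130.7 and 137.9 CPM on MSA-ZW and at 145.3, 140.4 and 139.9 CPM on MSA-DA. Its groups did not overlap, with a log2 difference of 0.08 whose 95% interval ran from 0.01 to 0.15 (edgeR adjusted p = 0.106). Without MSA-ZW replicate 3 Hmgcs1 passed as higher (edgeR adjusted p = 0.0339, over alternatives from 0.0339 to 0.645). Acat2 differed by 0.05 on the log2 scale (95% interval -0.04 to 0.13).

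Of the enzymes that turn mevalonate into isoprenoid diphosphates, Mvk and Fdps were lower on MSA-DA. Mvk encodes mevalonate kinase (ENSMUSG00000041939, chromosome 5, 114582330 to 114598652, GRCm39). It stood at 19.3, 17.4 and 17.7 CPM on MSA-ZW and at 15.7, 14.9 and 14.2 CPM on MSA-DA. The groups were apart, and Mvk was 1.22-fold lower, with a log2 difference of -0.28 and a standard error of 0.09 (edgeR adjusted p = 0.0249). This was the largest difference of the 31 genes, in 1 of the less abundant ones. The call was lost without MSA-DA replicate 2 (edgeR adjusted p = 0.0768), MSA-DA replicate 3 (0.104) or MSA-ZW replicate 1 (0.108), with the GC content and length correction (0.0881) and with DESeq2 (0.117, the highest over the alternatives, of which the lowest was 0.0198).

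Fdps encodes farnesyl diphosphate synthase (ENSMUSG00000059743, chromosome 3, 89000895 to 89009266, GRCm39), whose product feeds sterols and prenyl groups alike. It stood at 166.6, 164.8 and 178.3 CPM on MSA-ZW and at 152.5, 160.1 and 153.6 CPM on MSA-DA. No library of one gel fell within the range of the other. Fdps was 1.09-fold lower, with a log2 difference of -0.13 and a standard error of 0.03 (edgeR adjusted p = 0.00969). Without MSA-DA replicate 1 or MSA-ZW replicate 3 its edgeR adjusted p was 0.05004 and 0.0510, over alternatives from 0.00686 to 0.149.

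Phosphomevalonate kinase Pmvk and the decarboxylase Mvd, the steps between those enzymes, had log2 differences of -0.15 and -0.12 and did not pass (edgeR adjusted p of 0.193 and 0.187). The isomerase Idi1 had a log2 difference of 0.06 (95% interval -0.02 to 0.13). Ggps1, which makes geranylgeranyl diphosphate for protein prenylation, had one of 0.06 as well (95% interval -0.05 to 0.17). Fitted directions therefore differed among consecutive steps, but the intervals of Idi1 and Ggps1 included 0. Pmvk was apart between the gels while Mvd and Idi1 overlapped. After the GC content and length correction the fitted values of these genes all lay below 0. Those of Mvd, Idi1 and Ggps1 were smaller than their standard errors (0.058, 0.037 and 0.054), so their directions are not determined. The log2 differences were then -0.23 for Mvk, -0.09 for Pmvk, -0.05 for Mvd, -0.0073 for Idi1, -0.12 for Fdps and -0.0086 for Ggps1.

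Of the enzymes from squalene to cholesterol, Sc5d was higher on MSA-DA and the rest did not pass. Sc5d, the lathosterol desaturase (ENSMUSG00000032018, chromosome 9, 42162891 to 42175552, GRCm39), stood at 67.8, 76.0 and 67.9 CPM on MSA-ZW and at 78.6, 75.2 and 81.1 CPM on MSA-DA. MSA-DA replicate 2 lay below MSA-ZW replicate 2, so the groups overlapped. Sc5d was 1.11-fold higher, with a log2 difference of 0.15 and a standard error of 0.05 (edgeR adjusted p = 0.0288). The call was lost without MSA-DA replicate 1 (edgeR adjusted p = 0.1001), MSA-DA replicate 3 (0.184), MSA-ZW replicate 1 (0.141) or MSA-ZW replicate 3 (0.0984), with the GC content and length correction (0.180) and with DESeq2 (0.119), over alternatives from 0.00623 to 0.219.

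Sqle, squalene epoxidase and a rate-limiting step of the branch, stood at 162.1, 162.3 and 162.7 CPM on MSA-ZW and at 160.4, 165.6 and 169.1 CPM on MSA-DA. MSA-DA values lay on both sides of the MSA-ZW values, and the 95% interval of the log2 difference ran from -0.04 to 0.09, so that a change beyond that size lay outside the interval (edgeR adjusted p = 0.702). Lss, the cyclase that forms lanosterol, had a log2 difference of 0.0039 (95% interval -0.07 to 0.08), and Cyp51, the lanosterol demethylase, had one of 0.01 (-0.05 to 0.08). Squalene synthase Fdft1 had a log2 difference of -0.03 (95% interval -0.10 to 0.04). These 4 enzymes had the smallest fitted differences of the 18 sterol enzymes.

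Msmo1, which removes methyl groups from the sterol ring, had a log2 difference of 0.07 and groups that did not overlap (edgeR adjusted p = 0.138), and passed as higher without MSA-ZW replicate 3 (0.0468, over alternatives from 0.0468 to 0.574). Nsdhl and Hsd17b7, which act with it, had log2 differences of -0.03 and -0.05. The isomerase Ebp and the final reductase Dhcr7 had ones of -0.10 and -0.12, both with groups apart and neither called (edgeR adjusted p of 0.351 and 0.277). Tm7sf2, a sterol reductase, was the least abundant member at 4.12 to 5.86 CPM, and its log2 difference of -0.26 had a 95% interval from -0.56 to 0.05. Stard4, which moves sterols between membranes, had a log2 difference of 0.07 (95% interval -0.02 to 0.15).

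Some of these rows overlap other genes, and no source used here says whether counting used strand. Fdft1 shares 774 bases with Ctsb on the other strand, which had about 25 times its counts (2526%). Tm7sf2 shares 532 bases with Vps51 on the same strand, which had 464% of its counts, so counting by strand would not part them. Cyp51, Ggps1 and Srebf1 overlap Akap9, Arid4b and Rai1 on the other strand. Their values are uncertain to that extent. For the 8 called members, overlapping rows each had under 1% of the member's counts.

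In the fatty acid branch 2 of 6 members were called, both lower, beside 6.5% of all tested genes called lower. All of the 6 but Elovl6 had a mean of at least 64 CPM, a level at which 12.4% of all genes were called lower. Fasn encodes fatty acid synthase, which builds palmitate (ENSMUSG00000025153, chromosome 11, 120696672 to 120715373, GRCm39). It stood at 365.3, 355.4 and 349.2 CPM on MSA-ZW and at 330.9, 325.4 and 314.5 CPM on MSA-DA. The lowest MSA-ZW library was above the highest MSA-DA library. Fasn was 1.102-fold lower, with a log2 difference of -0.14 and a standard error of 0.03, the smallest edgeR adjusted p among the members (0.000819). The call held in each of the 6 fits that left out 1 library. It was lost with the GC content and length correction, where the log2 difference was -0.06 (edgeR adjusted p = 0.161), and in limma on log2(FPKM + 1) and log2(FPKM + 0.1) (adjusted p of 0.0791 and 0.0897).

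Acaca encodes acetyl-CoA carboxylase, which makes the malonyl-CoA that fatty acid synthase uses (ENSMUSG00000020532, chromosome 11, 84020498 to 84292477, GRCm39). It stood at 198.4, 204.6 and 191.4 CPM on MSA-ZW and at 182.9, 179.2 and 182.7 CPM on MSA-DA. The groups were apart, and Acaca was 1.09-fold lower, with a log2 difference of -0.13 and a standard error of 0.03 (edgeR adjusted p = 0.00614). When MSA-ZW replicate 2 was left out, the edgeR adjusted p rose to 0.0518, over alternatives from 0.000192 to 0.110.

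Scd2 and Scd1 encode stearoyl-CoA desaturases, which make monounsaturated fatty acids, and neither passed. Scd2 stood at 586.3, 599.2 and 597.5 CPM on MSA-ZW and at 569.1, 570.6 and 562.0 CPM on MSA-DA, without overlap. Its log2 difference was -0.07 with a 95% interval from -0.12 to -0.02 (edgeR adjusted p = 0.0654), and it passed as lower with DESeq2 (adjusted p = 0.0445) and without MSA-ZW replicate 1 (edgeR adjusted p = 0.0457). Scd1 stood at 90.5, 90.5 and 94.0 CPM on MSA-ZW and at 96.5, 87.2 and 94.4 CPM on MSA-DA, with a log2 difference of 0.01 (95% interval -0.07 to 0.10). These neighbouring genes on chromosome 19 are similar copies, so reads may have been divided between them. Acly, which supplies cytosolic acetyl-CoA to both branches, had a log2 difference of -0.02 (95% interval -0.08 to 0.03), and the elongase Elovl6 had one of 0.03 (-0.07 to 0.12).

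Levels were compared between genes in FPKM, the deposited count scaled by exonic length and library total. Scd2 was the highest at 102.54 to 109.59 FPKM over the 6 libraries, followed by Acly at 78.98 to 82.61 and Cyp51 at 45.43 to 47.53, each apart from its neighbours in the order. From Fdps (36.07 to 42.47 FPKM) down to Fdft1 (24.81 to 25.76 FPKM) each gene's range overlapped the next, so that their order is not resolved. This stretch held Acat2, Msmo1, Fasn, Hmgcs1, Sqle, Insig1, Idi1 and Nsdhl. Of the regulators, Srebf2 lay at 19.73 to 23.45 FPKM and Srebf1 at 7.27 to 9.26, while Scap lay at 5.05 to 6.09 and Tm7sf2 was last at 0.93 to 1.34 FPKM.

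**Figure D3:**
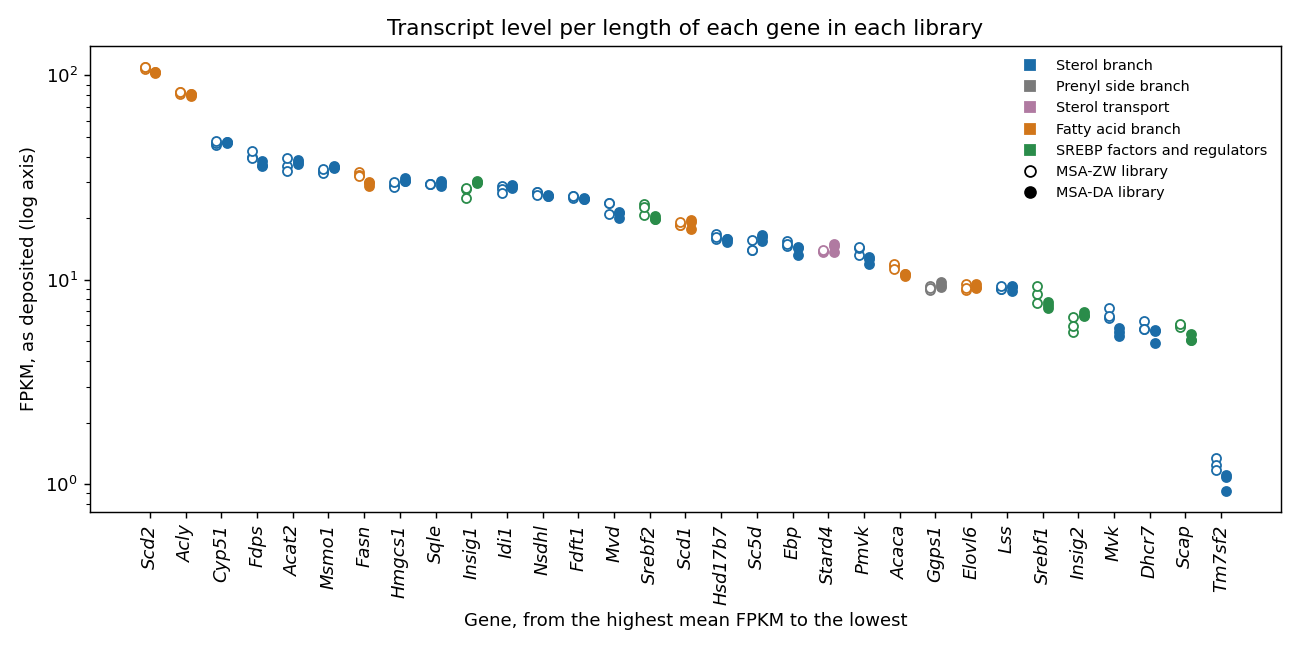
Deposited FPKM of each gene (vertical log axis) in the 3 MSA-ZW libraries (open points) and the 3 MSA-DA libraries (filled points), ordered by mean. Scd2 and Acly stand above 78 FPKM and Tm7sf2 near 1 FPKM, and the spread between libraries is small beside the spread between genes.

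Set side by side, the branches had medians close to each other. The median log2 difference was -0.03 over the 18 sterol enzymes, with a range from -0.28 to 0.15, and -0.05 over the 6 fatty acid enzymes, with a range from -0.14 to 0.03. Of the sterol enzymes 10 lay below 0 and 8 above, and of the fatty acid enzymes 4 lay below and 2 above. The summed level of the sterol branch was 400.8, 395.3 and 408.1 FPKM on MSA-ZW and 395.5, 394.8 and 398.9 FPKM on MSA-DA, so the gels overlapped. That of the fatty acid branch was 261.1, 264.6 and 263.7 FPKM on MSA-ZW and 254.35, 249.96 and 251.3 FPKM on MSA-DA, without overlap, and Scd2 made up the largest part of it. The ratio of the fatty acid sum to the sterol sum was 0.656 ± 0.0121 on MSA-ZW and 0.635 ± 0.00687 on MSA-DA (SD, n = 3). No test was made of these sums, which are dominated by the most abundant enzymes.

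**Figure D4:**
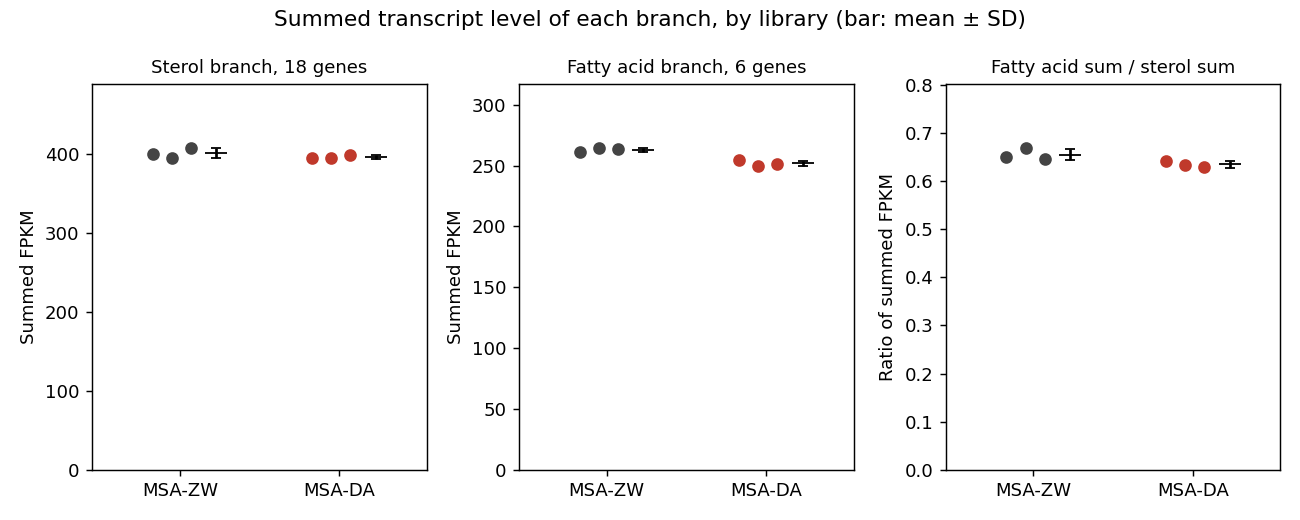
Summed deposited FPKM of the 18 sterol enzymes and of the 6 fatty acid enzymes, and the ratio of these sums, in each library (points) with mean and SD for each gel. Sterol sums overlap between the gels, whereas fatty acid sums are 249.96 to 254.35 on MSA-DA and 261.1 to 264.6 on MSA-ZW.

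The base composition of the transcripts moved with these differences. Over the 31 members the log2 difference fell with the GC content of the longest annotated transcript (Spearman rho of -0.80 across genes that share the same libraries), and over 12329 tested genes rho was -0.32. The tested genes included ones less abundant than any member, so these coefficients are not matched for level and their sizes were not compared. All 7 members of at least 55% GC, namely Mvk, Pmvk, Mvd, Fasn, Srebf1, Srebf2 and Scap, had log2 differences below 0, and 4 of them were called lower by edgeR, beside 12.9% lower and 1.64% higher among all genes of that composition. Of the 8 members under 45% GC, 7 lay above 0 and 1 was called higher, beside 13.9% higher and 2.34% lower among all such genes. Of the 16 members in between, 1 was called higher and 2 lower, beside 5.31% and 6.32% of such genes. These shares by composition cover tested genes of any level and are not matched to the members, and abundant genes were called more often.

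With a correction for GC content and exonic length in the edgeR fit, which called 11% of the genes it covered, 5.5% as higher and 5.46% as lower, 4 members passed, 1 higher and 3 lower. Insig1 (log2 difference 0.15, adjusted p = 0.00921), Fdps (-0.12, adjusted p = 0.00743) and Acaca (-0.10, adjusted p = 0.0117) kept their calls, and Scd2 was called lower (-0.07, adjusted p = 0.0472). Those of Fasn, Srebf2 and Scap were lost, with the values given above, and those of Mvk (log2 difference -0.23, edgeR adjusted p = 0.0881) and Sc5d (0.10, adjusted p = 0.180) as well. After the correction rho over the members was -0.54, beside -0.0045 over the 12329 genes, again not matched for level.

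**Figure D5:**
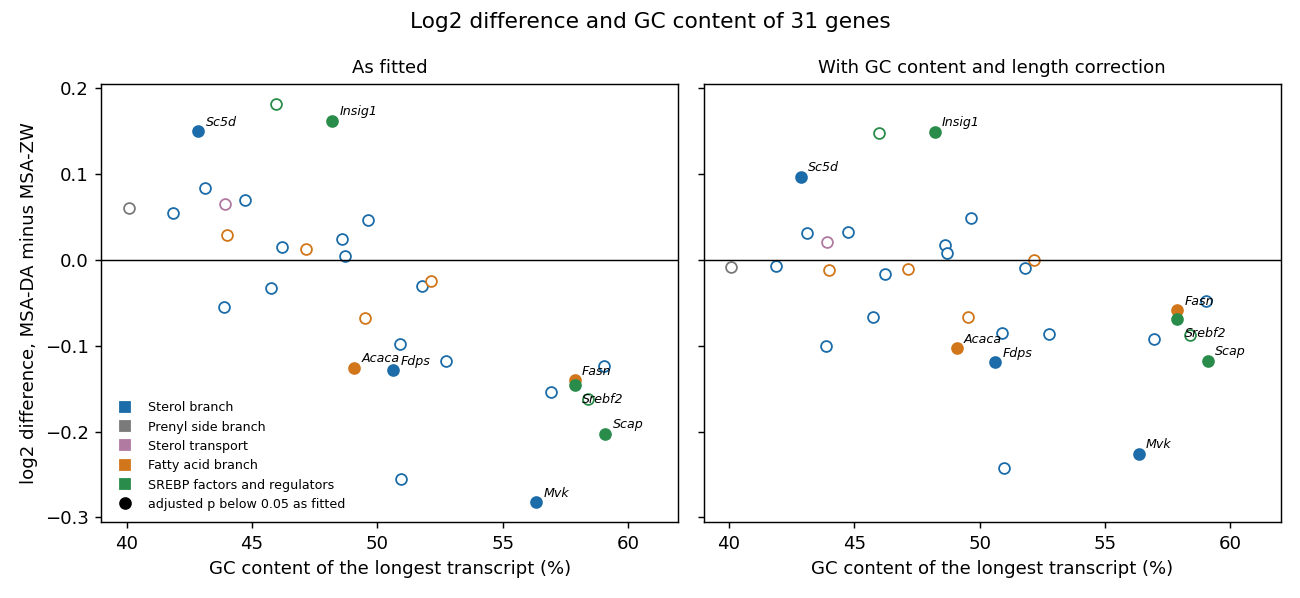
Log2 difference of the 31 genes (vertical axis) against the GC content of the longest transcript (horizontal axis, %), as fitted (left) and with the GC content and length correction (right); filled points passed as fitted. On the left Scap, Srebf2 and Fasn lie near 58% GC and below -0.13, and on the right they lie between -0.12 and -0.06.

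On the scale of log2(FPKM + 1), limma called 0 of 31 members, with 12 at an unadjusted p below 0.05, where edgeR had 15 at that level. It called 3.71% of all 10874 genes in that fit, and 2.93% of them with a pseudocount of 0.1. With a variance trend limma called 3 members, Mvk, Fasn and Scap, beside 8.33% of the same genes. DESeq2 called 6 members, beside 10.5% of the 8948 genes to which it gave an adjusted p. Of the 6, Fdps, Acaca, Fasn, Srebf2 and Insig1 were shared with edgeR and Scd2 was not. Every called member kept its direction in all 16 alternatives.

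Of 45 other genes of these pathways, 42 could be tested, and 2 were called higher and 3 lower (11.9%), near the 13.4% of all tested genes. Fads2, which introduces a double bond into polyunsaturated fatty acids, stood at 282.7, 276.0 and 281.9 CPM on MSA-ZW and at 249.5, 250.8 and 254.0 CPM on MSA-DA. It was 1.11-fold lower without overlap (edgeR adjusted p = 0.000192), and it also passed with the GC content and length correction (adjusted p = 0.0027). Me1, the malic enzyme that yields NADPH for fatty acid synthesis, stood at 117.4, 112.3 and 124.2 CPM on MSA-ZW and at 124.7, 131.9 and 131.0 CPM on MSA-DA, and was 1.095-fold higher (edgeR adjusted p = 0.0169). The Me1 groups were nearly in contact, at 124.2 and 124.7 CPM.

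The remaining calls were in the use of isoprenoids. Coq2, which attaches the side chain of coenzyme Q, stood at 24.8, 25.2 and 25.4 CPM on MSA-ZW and at 18.9, 22.3 and 21.1 CPM on MSA-DA, and was 1.21-fold lower (edgeR adjusted p = 0.0146). Pggt1b, a subunit of the enzyme that attaches geranylgeranyl groups to proteins, stood at 56.9, 54.7 and 53.1 CPM on MSA-ZW and at 61.98, 60.8 and 60.2 CPM on MSA-DA, and was 1.11-fold higher (edgeR adjusted p = 0.0269). Fntb, a subunit of farnesyltransferase, stood at 21.8, 26.8 and 22.8 CPM on MSA-ZW and at 19.9, 19.9 and 20.6 CPM on MSA-DA, and was 1.18-fold lower (edgeR adjusted p = 0.0416). The groups of these 3 genes were apart, and Fntb overlaps Rab15 and Churc1, whose counts are of a similar size or larger. With the GC content and length correction Coq2 passed (edgeR adjusted p = 0.0430) and Me1, Pggt1b and Fntb did not (0.0941, 0.136 and 0.114).

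These calls rested on single libraries to different degrees. Fads2 held in each fit that left out 1 library. Coq2 was lost without MSA-DA replicate 1 (edgeR adjusted p = 0.0998, over alternatives from 0.0113 to 0.0998). Me1 was lost without MSA-DA replicate 2 or 3 or MSA-ZW replicate 1 or 2 (edgeR adjusted p of 0.139, 0.1002, 0.0571 and 0.160, over alternatives from 0.000621 to 0.215). Fntb was lost without MSA-DA replicate 1, 2 or 3 or MSA-ZW replicate 2 (edgeR adjusted p of 0.105, 0.130, 0.0756 and 0.271, over alternatives from 0.0209 to 0.271). Pggt1b was called only without MSA-ZW replicate 1 among these 6 fits (edgeR adjusted p = 0.0236), and in the others its adjusted p was 0.0685 to 0.107, over alternatives from 0.0236 to 0.140. Of the genes not called above, edgeR called Mbtps2 without MSA-DA replicate 1, Tecr and Dhdds without MSA-ZW replicate 1, and Hsd17b12 without MSA-ZW replicate 3.

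Of 13 tested genes of SREBP and LXR control, 0 passed in edgeR (2 at an unadjusted p below 0.05, 0 adjusted with DESeq2 or limma), beside 13.4% of all tested genes. The gels did not overlap in 2 of the 13 (15.4%), beside 28.3% of all tested genes. The proteases that cleave SREBP, Mbtps1 and Mbtps2, had log2 differences of -0.08 and 0.10. Prkaa2, the control gene that could not be tested, had 2 counts in 1 library. Outside this group, Elovl7 (fatty acid) and Ch25h (sterol) had 0 counts in every library. No difference was detectable in these genes at this depth.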

How the data were processed

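RNA from 6 macrophage libraries, 3 per hydrogel, was grouped and numbered by the titles. HISAT2 2.2.1, cutadapt 1.9.1, bcl2fastq 2.20.0.422 and build GRCm39 are listed, with no order, per the submitters' processing notes. No source used here names the counter, whether it used strand, or the annotation. The authors deposited raw counts and FPKM values per gene, per the file headers. Dividing counts by exonic length and library total gives the deposited FPKM to within 0.005.

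Differences in counts were assessed in R 4.3.3 by the quasi-likelihood test of edgeR 4.0.16 (TMM, filterByExpr, group as the only term) over 12467 genes, with Benjamini-Hochberg adjustment. Standard errors are the log2 difference divided by the square root of F, and 95% intervals use the fit's total degrees of freedom. The common biological coefficient of variation was 3.04%. GC content came from the longest GENCODE M21 transcript of each gene, matched by identifier for all 31 members, and the correction subtracted a loess fit (span 0.3) of each library's deviation on GC content and length. Alternatives were DESeq2 1.42.0, RLE size factors, no filter, a minimum of 10 counts in every library of a group, limma 3.58.1 on log2(FPKM + 1) and log2(FPKM + 0.1) for genes of at least 1 FPKM in 3 libraries, a replicate block, leaving out each library, and leaving out 118 ribosomal-RNA-like and mitochondrial genes. A limma fit with a variance trend was added after seeing the data. The fits were tested on simulated data that held no trend with GC content. A set recovery was required only in edgeR and only for changes larger than any fitted for the members. The members, lists and tests were chosen with earlier results of these data known. Called members and 5 called pathway genes are named with values, as are Srebf1, Scd1, Scd2, Sqle and Hmgcs1. Genes under the count filter were left out of tests, and no sample was left out. Some results of the pathway are not reported here.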

Additional observations from a re-analysis of the deposited data

How the results depend on the processing

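In the 5 edgeR fits with other size factors, other filters, the replicate block or fewer ribosomal-RNA-like and mitochondrial genes, the same 8 members were called, with Scd2 added in the last of these. The replicate block called 2 members higher and 6 lower and 1594 genes in all. Same-numbered libraries of the gels did not deviate together (correlations of 0.011, 0.017 and -0.0025), so the numbers are not taken to pair them.

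DESeq2 called 1 member higher, with 0 higher and 1 lower in the sterol branch, 1 regulator lower, 0 other pathway genes higher and 1 lower, and 942 of 8948 genes in all. The GC content and length correction gave 1 member higher and 3 lower, 0 higher and 1 lower in the sterol branch, 0 regulators lower and 0 other pathway genes higher. Limma on log2(FPKM + 1) gave 0 for members, sterol branch, fatty acid branch and regulators in both directions (12 members at an unadjusted p below 0.05), 0 other genes higher and 1 lower, and 403 of 10874 genes in all. On log2(FPKM + 0.1) it gave 0 for each of these and for the other genes (11 members at an unadjusted p below 0.05) and 319 of 10874. With a variance trend it gave 0 members higher and 3 lower, 1 lower in each of the sterol branch, fatty acid branch and regulators, 0 higher in each, 0 other genes higher, and 906 of 10874.

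Leaving out 1 library gave 0 to 3 members higher and 4 to 6 lower, 0 to 2 higher and 1 to 2 lower in the sterol branch, 1 to 3 lower in the fatty acid branch, 0 to 1 higher and 1 to 3 lower among regulators, 0 to 2 higher and 1 to 5 lower among other genes, and 1001 to 1654 genes in all. No member was called higher without MSA-DA replicate 3, and the count of all genes was lowest without MSA-DA replicate 2.

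Directions that reversed were those of members that were not called. After the GC content and length correction, log2 differences were -0.0073 for Idi1, -0.017 for Cyp51, -0.0086 for Ggps1, 0.00014 for Acly, -0.010 for Scd1 and -0.012 for Elovl6. Lss was at -0.0017 and -0.0015 in limma with pseudocounts of 0.1 and 1, also with the trend, and at -0.0012 without ribosomal-RNA-like and mitochondrial genes. Leaving out 1 library gave -0.019 to 0.022 for Lss, -0.021 to 0.053 for Scd1, -0.0070 to 0.029 for Cyp51 and -7.0e-05 to 0.10 for Acat2. The cause of these changes was not tested. Depth limits Tm7sf2, Mvk, Pmvk and Insig2 most, whose standard errors were 0.08 to 0.15 on the log2 scale.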
